A study of Mus musculus with 14 samples.

Results

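Car9, Slc2a1, Pdk1, Bnip3, Ndrg1, Ankrd37, Vegfa, Adm and Egln3 are genes that low oxygen is known to induce, and these 9 of the 21138 genes in the count table are described here in single mouse cells. They were taken by name, with earlier results of these data known, and all 9 had counts. The series holds RNA libraries of 648 sorted cells, made 1 cell at a time with the Smart-seq2 protocol, in 14 samples. Of these cells, 539 belong to 9 tumor-bearing samples (replicates 1 to 9): female C57BL/6J mice of 6 to 8 weeks that were given B16F10 melanoma cells carrying a fluorescent label. Blood and lung cells of these mice were sorted, on tumor and host markers that are not named, into classes labelled CTC, DP and WBC. The sample titles of replicates 1 to 6 begin with C and those of replicates 7 to 9 with P. The series asks how the DP class relates to tumor cells and to leukocytes. The other 109 cells are controls with 1 sample each: 22 B16F10 cells, whose labels describe the cultured line, and 18 CDP, 24 Duplike, 24 PltLike and 21 WBC cells, which the labels place in untreated (naive) C57BL/6J females of the same age. All tumor cells thus go back to a single melanoma line. The labels do not say whether a sample is a single animal or a pool, nor what CDP, Duplike and PltLike mean, so p-values measure only the spread between these samples, which may be technical.

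Cells sense oxygen through hypoxia-inducible factors (HIFs), transcription factors whose alpha subunit is hydroxylated by prolyl hydroxylases of the Egln family when oxygen is present, then bound by the Vhl protein and degraded. When oxygen falls, the alpha subunit persists, pairs with Arnt and binds short hypoxia response elements near its target genes. Known targets supply and redirect glucose, control acidity, remove mitochondria and signal to blood vessels, and solid tumors, melanoma among them, are known for switching them on in poorly supplied regions. Some of these genes also answer to other signals, such as growth factors, and a high level alone does not measure oxygen.

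All 9 are protein-coding genes, and their positions are those of GENCODE vM21 on GRCm38. On the plus strand lie Car9 (chr4:43506966-43513729, ENSMUSG00000028463.14), Slc2a1 (chr4:119108711-119137983, ENSMUSG00000028645.11), Pdk1 (chr2:71873224-71903858, ENSMUSG00000006494.11) and Adm (chr7:110627661-110629820, ENSMUSG00000030790.15). On the minus strand lie Bnip3 (chr7:138890836-138909519, ENSMUSG00000078566.8), Ndrg1 (chr15:66929318-66969640, ENSMUSG00000005125.13), Ankrd37 (chr8:45996902-46005707, ENSMUSG00000050914.16), Vegfa (chr17:46016993-46032369, ENSMUSG00000023951.17) and Egln3 (chr12:54178981-54203860, ENSMUSG00000035105.5).

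The core letters of a hypoxia response element, ACGTG or GCGTG, were searched on both strands of the 250 bases before each RefSeq start site (GRCm38.p6). Promoters were found for 8 of the 9 genes (the exception was Ndrg1). For 8 of 8 at least 1 promoter held a core, against 41.5% of all 27025 genes with a promoter. Of the 10 promoters of the 8 genes, 8 held one, against 38.6% of all 32851 RefSeq promoters of this length. For Vegfa the promoter at the gene's 5′ end held none, and that inside the gene held 2. The 4 promoters shown belong to the genes on which the results turn, Car9 and Adm for their differences between groups and Bnip3 and Slc2a1 for their co-variation between cells. They run 5′ to 3′ on the gene's strand, with matches in capitals. In Car9 (chr4:43506776-43507025, plus strand) the single match begins 18 bases before the start site. In Bnip3 (chr7:138909507-138909756, minus strand) there are 5 matches, of which 2 overlap in the palindrome CACGTG, an E-box that other factors also bind. Slc2a1 (chr4:119108495-119108744, plus strand) and Adm (chr7:110627407-110627656, plus strand) hold 2 each. A match is a run of letters and says nothing of binding in these cells.
Car9: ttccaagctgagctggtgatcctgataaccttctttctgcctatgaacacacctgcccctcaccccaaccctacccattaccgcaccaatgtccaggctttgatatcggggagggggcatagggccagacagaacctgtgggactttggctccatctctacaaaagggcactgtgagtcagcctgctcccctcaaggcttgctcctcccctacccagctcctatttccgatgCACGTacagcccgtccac
Bnip3: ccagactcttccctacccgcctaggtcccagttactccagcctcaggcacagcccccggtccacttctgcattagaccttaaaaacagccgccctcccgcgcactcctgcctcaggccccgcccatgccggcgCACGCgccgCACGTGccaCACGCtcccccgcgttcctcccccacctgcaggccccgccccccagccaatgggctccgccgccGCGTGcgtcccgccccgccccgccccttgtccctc
Slc2a1: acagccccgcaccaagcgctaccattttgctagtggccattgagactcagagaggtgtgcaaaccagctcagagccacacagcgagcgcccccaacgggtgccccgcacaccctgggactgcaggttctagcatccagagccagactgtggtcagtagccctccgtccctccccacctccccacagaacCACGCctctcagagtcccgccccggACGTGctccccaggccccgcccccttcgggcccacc
Adm: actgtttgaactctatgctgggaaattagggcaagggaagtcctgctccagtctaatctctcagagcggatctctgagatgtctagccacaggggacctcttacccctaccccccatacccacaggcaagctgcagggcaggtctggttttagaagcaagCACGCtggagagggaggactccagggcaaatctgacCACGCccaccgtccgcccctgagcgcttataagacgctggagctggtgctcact

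Because the DP class mixes cells of both kinds, each cell was called tumor-high where its summed level of 12 melanocyte genes exceeded that of 12 pan-leukocyte genes, and tumor-low otherwise. By this rule 415 cells were tumor-high and 233 tumor-low, and 70 lay within 10-fold of the boundary. All 43 CTC were tumor-high, as were 200 of 273 DP cells from blood and 80 of 177 from lung. The libraries labelled CDP, Duplike and PltLike go against the label naive: all of their cells were tumor-high, with median melanocyte sums of 27008 to 33461 CPM (counts for every 1000000 of a cell's or a sum's total) against 33248 in B16F10 and 53.5 in naive WBC. Another 4 tumor-high cells were lung WBC with low sums of both lists (medians of 703 and 52.9 CPM) and a median of 6768 CPM of fibroblast genes. They count in the WBC class and were left out of the tumor-high comparisons. Cells had 20525 to 104170496 counts, with a median of 15.8 M (M, 1000000). Even values made up 56.7% of counts above 0, so that 1 fragment may have been counted more than once, and intervals cover counting error only. No doublet caller was run.

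Per kilobase of exon, the genes of the group spanned a wide range of levels in tumor-high cells of blood. Levels are given for summed counts of CTC and DP cells per sample (228 cells, 7 samples). Bnip3, a mitochondrial receptor that directs mitochondria to degradation, averaged 192 ± 109 CPM per kb (SD, n = 7) and Car9, a cell-surface carbonic anhydrase that regulates pH, 169 ± 96.5, which did not differ beyond their spread. Slc2a1, the glucose transporter GLUT1, followed with 69.9 ± 30.0. Adm, the vasodilator peptide adrenomedullin, averaged 17.4 ± 12.4, and Pdk1, a mitochondrial kinase that inhibits pyruvate dehydrogenase, 17.0 ± 5.65. Ndrg1, a stress-responsive gene linked to differentiation, averaged 15.2 ± 11.4. Adm, Pdk1 and Ndrg1 lay within each other's spread. Ankrd37, an ankyrin-repeat gene, averaged 8.88 ± 9.67, Vegfa, the vessel growth factor, 1.49 ± 1.15, and Egln3, an oxygen-sensing prolyl hydroxylase that is itself a target, 0.227 ± 0.314. In the B16F10 culture the order was another. Bnip3 led with 99.9 CPM per kb, Slc2a1 (21.8), Ndrg1 (19.0) and Pdk1 (7.93) came next, and Car9 (3.17) and Adm (0.0641) were far down.

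**Figure D1:**
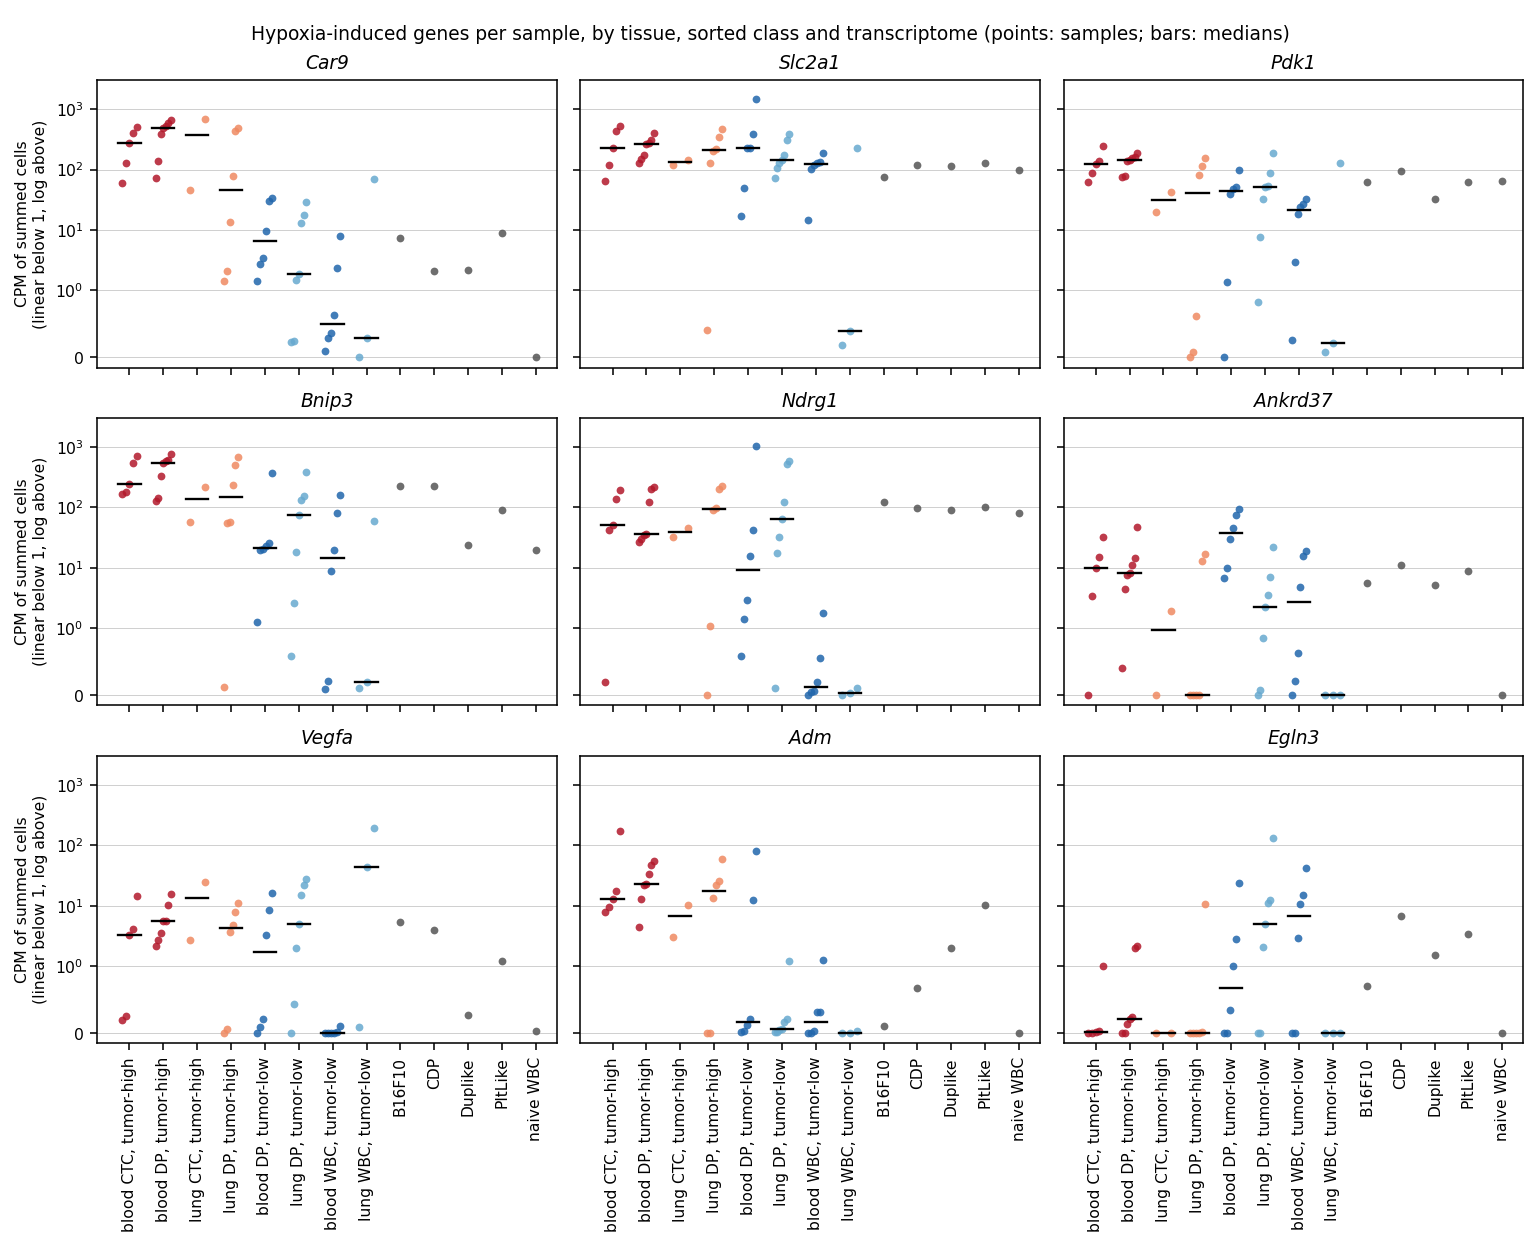
CPM of summed cells for each of the 9 genes (vertical axis, linear below 1 and logarithmic above), by tissue, sorted class and transcriptome for tumor-bearing samples, and for the 5 controls. Each point is 1 sample and each bar the median of samples; Car9 lies between 59.6 and 653 CPM in every blood tumor-high sum and at 8.91 CPM or less in each control.

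Car9 set tumor-high cells of mice apart from the culture. In the 7 blood sums it was 72.3 CPM at the lowest (replicate 7), 482 at the median and 631 at the highest (replicate 5). The B16F10 culture had 7.31 CPM, PltLike 8.91, Duplike 2.15, CDP 2.09 and naive WBC 0 counts, which allows up to 0.113 CPM. The blood sums and the controls did not overlap. In lung tumor-high sums the 6 samples split, with 2.06 (replicate 1, 2 cells), 1.12 (replicate 2, 6 cells), 623 (replicate 3, 6 cells), 53.9 (replicate 5, 15 cells), 486 (replicate 7, 34 cells) and 442 CPM (replicate 8, 32 cells). Replicate 3 owed 91.9% of its Car9 counts to a single cell. The well-filled lung sums of replicates 7 and 8 lay within the blood range. Replicate 5, with 15 cells, lay below every blood sum, and the lowest values, in replicates 1 and 2, rested on few cells. Titles of replicates 7 and 8 begin with P and those of the other lung samples with C. Title letter and number of cells thus cannot be told apart here.

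Slc2a1 was expressed in most kinds of cells. Tumor-low lung WBC sums were an exception, with a median of 0.394 CPM (3 samples, 0.184 to 225). Blood tumor-high sums ran from 108 CPM (replicate 2) over a median of 265 to 417 (replicate 6), and lung sums from 129.8 over 177 to 339. The controls had 76.3 in B16F10, 119.8 in CDP, 116 in Duplike, 130.1 in PltLike and 97.1 in naive WBC. In naive WBC only 3 of 21 cells had 10 CPM or more. All 7 blood sums exceeded the culture, but sums of tumor-low DP cells overlapped with them. Their medians were 228 CPM in blood (6 samples, 16.9 to 1478) and 141 in lung (7 samples, 71.8 to 389.7). The value of 1478 in replicate 3 came from 2 cells. The median single tumor-low DP cell had 5.16 CPM in blood and 7.78 in lung, against 193 in tumor-high cells of blood.

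Pdk1 varied little between blood samples, with 71.3 CPM (replicate 3) at the lowest, 144 at the median and 195 (replicate 6) at the highest. Its culture level was 61.7, below each of them, and CDP had 95.9, Duplike 33.0, PltLike 63.0 and naive WBC 65.5, the last owing 99.3% of its counts to a single cell. Lung tumor-high sums were 0.617, 0, 38.2, 34.0, 114 and 155 CPM in replicates 1, 2, 3, 5, 7 and 8. Replicates 7 and 8, the lung samples with many cells and with titles beginning with P, lay within the blood range, and the 4 others below it.

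Bnip3 was high in tumor-high cells and in the culture alike. Blood sums had a lowest value of 129 CPM (replicate 7), a median of 523 and a highest of 755 (replicate 6). B16F10 had 226, CDP 225, PltLike 92.2, Duplike 24.0 and naive WBC 19.8, so that 5 of 7 blood samples exceeded the culture. Lung sums ran from 55.5 over a median of 150.4 to 689, and the lowest 2, in replicates 1 and 2, came to 99.6% and 99.9% from a single cell each.

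Ndrg1 and Ankrd37 overlapped between mice and culture. Ndrg1 had 30.5 CPM at the lowest, 85.5 at the median and 214 at the highest of the blood tumor-high sums, and B16F10, with 125, lay inside that range, as did the 4 other controls (79.6 to 102). The naive WBC value of 79.6 rested on few cells, with 3 of 21 at 10 CPM or more and a median cell of 0. Ankrd37 had 0.402, 8.30 and 46.0 CPM, with 5.71 in the culture. In summed tumor-low DP cells of blood Ankrd37 reached a median of 37.9 CPM (6.84 to 95.1). These sums rested on few cells, with 14 of 73 (19.2%) at 10 CPM or more and a median cell of 0. In tumor-high cells of blood the share was 34.6%.

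The secreted factors went separate ways. Adm had 4.51 CPM at the lowest (replicate 7), 23.0 at the median and 63.5 at the highest (replicate 6) of the blood tumor-high sums, against 0.104 in B16F10, 0.670 in CDP, 2.0 in Duplike, 10.2 in PltLike and 0 counts in naive WBC. All blood sums were above the culture, but PltLike lay among them, with 95.1% of its counts in a single cell. Vegfa was low throughout, at 1.87 to 15.6 CPM in the blood sums (median 5.12) and 5.37 in the culture. The highest Vegfa sums were lung WBC of replicate 2 (196 CPM) and replicate 5 (44.4 CPM), with 100% and 89.7% of the counts in a single cell.

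Egln3 was near 0 in tumor-high cells of blood. Its blood sums were 0.00379 to 1.85 CPM (median 0.197), and 1.75% of the 228 cells (exact 95% binomial interval 0.480 to 4.43) had 10 CPM or more. The culture had 0.699 CPM, all of it in a single cell. Blood WBC held more in 4 of 6 samples, with a median of 6.87 and a highest value of 43.0 CPM, and in each of these 4 a single cell carried 98.6% to 100% of the counts.

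To ask how tumor-high cells of the blood differ from the cultured line, the 7 summed blood samples were set against the culture, a lone sample assumed to vary like the others. Of the 9 genes 2 were higher and 0 lower, where 2.46% of the 14528 genes tested were higher. Car9 was higher by 5.80 ± 1.33 on the log2 scale (SE; adjusted p = 0.0377 from the quasi-likelihood fit of edgeR, corrected over all genes by Benjamini-Hochberg) and Adm by 8.15 ± 1.69 (adjusted p = 0.0237), each above the culture in 7 of 7 samples. Slc2a1 (1.76 ± 0.62, adjusted p = 0.179) and Pdk1 (1.17 ± 0.48, adjusted p = 0.265) lay above the culture in 7 of 7 samples without passing. Bnip3 (1.01 ± 0.83), Ankrd37 (1.32 ± 1.60), Vegfa (0.32 ± 1.25), Ndrg1 (-0.26 ± 0.88) and Egln3 (-0.17 ± 2.92) did not pass either. The median of the 9 was 1.17, beside 0.22 over all genes tested. Even large changes added to simulated data were mostly missed in this design, so genes that did not pass are not shown to be unchanged.

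The Car9 call was thin, since it was lost without replicate 1 (adjusted p = 0.0638), replicate 2 (0.068), replicate 5 (0.0551) or replicate 6 (0.0571), and it was kept in 15 of 19 alternatives (adjusted p from 2.17e-09 to 0.0680) with values of 5.29 to 5.98. Adm kept its call in 18 of 19 (adjusted p from 1.98e-14 to 0.0939) and lost it with cells weighted equally (4.45). The alternatives of blood cells only, of sums of at least 5 cells, and without replicate 4 or 8 repeated this fit unchanged. Their kept calls for Car9 and Adm were thus fixed in advance. The median cell had 14.5 M counts in the culture, 18.3 in blood CTC and 18.9 in blood tumor-high DP. The summed pan-leukocyte genes had a median of 970.4 CPM in blood (263 to 7169, 12 of 12 detected, 0 at a median of 0) and 920.0 in the culture (536 to 1444, 12 of 12 detected, 4 at a median of 0). Macrophage genes reached 9717 CPM in single blood cells, with a median of 6.24 and 2 of 7 at a median of 0, and 142 CPM in the culture (median 18.9, 5 of 7 at a median of 0), and their part in the result was not tested.

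**Figure D2:**
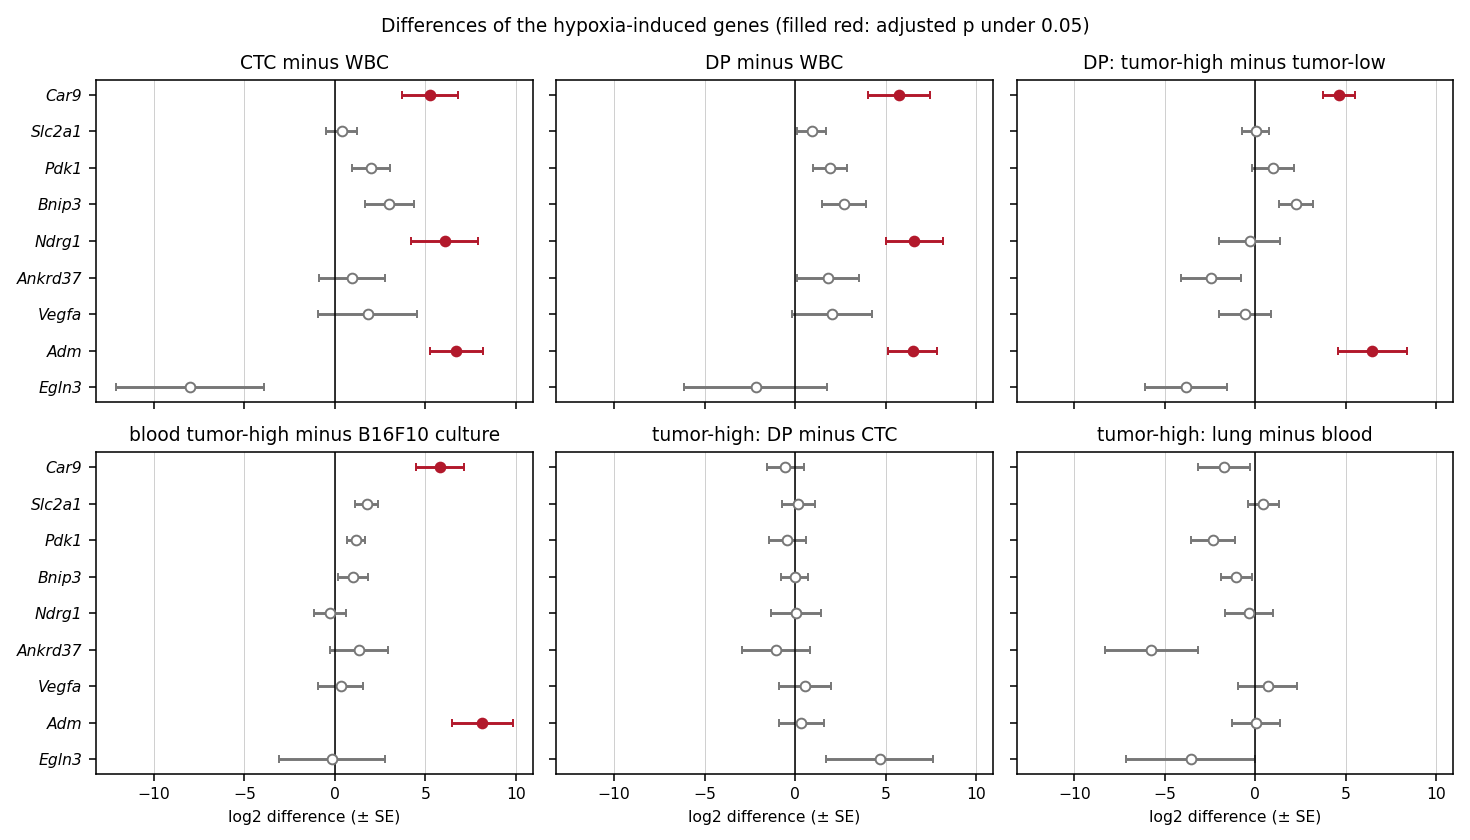
Log2 difference of each of the 9 genes with its SE (horizontal axis) in 6 comparisons, filled red where the adjusted p was under 0.05. Car9 and Adm pass in 4 panels, Ndrg1 in the comparisons with WBC, and none passes in the 2 panels within tumor-high cells.

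Against WBC of the same samples, the sorted classes CTC and DP both carried more Car9, Ndrg1 and Adm. These comparisons share the WBC sums and are not independent, and DP sums join tumor-high and tumor-low cells, so that more cells of a kind and more RNA per cell cannot be told apart. Pooled over tissues, Car9 averaged 256 ± 167 CPM in CTC (n = 5), 312 ± 189 in DP (n = 9) and 5.83 ± 11.9 in WBC (n = 6). In WBC the highest Car9 value was 30.0 CPM (replicate 3), of which a single lung cell gave 99.1%, and no WBC sample reached the lowest CTC sample, at 89.6, while the lowest DP sample, at 12.9, lay inside the WBC range. Ndrg1 averaged 69.7 ± 63.7, 119 ± 83.1 and 8.70 ± 20.0 CPM in the 3 classes, and Adm 42.2 ± 74.8, 20.2 ± 17.1 and 0.277 ± 0.49. CTC of replicate 6 had 176 CPM of Adm, 60.0% of it in a single cell, and the other 4 CTC samples 4.85 to 12.3, all above the highest WBC sample, at 1.25. The lowest DP sample for Adm (0.0184) and the lowest CTC and DP samples for Ndrg1 (0.197 and 25.7) lay within the WBC ranges, which reached 49.4 CPM for Ndrg1. That value rested on the tumor-high lung WBC cells, whose sums reached 489 CPM of Ndrg1. Sums of tumor-low WBC reached 1.78 CPM in blood and 0.109 in lung, below the lowest DP sample.

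In CTC, 3 of the 9 genes were higher than in WBC and 0 lower, where 16% of 12595 genes were higher. Car9 was higher by 5.26 ± 1.56 (adjusted p = 0.0134, 5 of 5 samples), Ndrg1 by 6.08 ± 1.86 (adjusted p = 0.0161, 4 of 5 samples) and Adm by 6.72 ± 1.47 (adjusted p = 0.00131, 5 of 5 samples). Bnip3 (3.02 ± 1.34, adjusted p = 0.0982) and Pdk1 (1.98 ± 1.05, adjusted p = 0.171) lay higher in 5 of 5 samples without passing, and the 4 others did not pass. The median of the 9 was 1.98, beside 0.74 over all genes. Of changes added to simulated data, 42% of those of 6 on the log2 scale and 0% of those of 2 were recovered. Genes that did not pass are thus not shown to be unchanged. The simulated data gave all genes the same spread, and in the measured counts Aldoa (1.33 ± 0.35) and Eno1 (1.73 ± 0.33) passed. The comparison of DP with WBC comes from the same fit. Adm kept its call in 18 of 18 alternatives (3.20 to 7.63), Car9 in 16 and Ndrg1 in 14. Car9 missed the threshold without replicate 2 (4.41, adjusted p = 0.0511) or replicate 5 (5.24, adjusted p = 0.0577), against a lowest adjusted p of 2.32e-05 over its alternatives. Ndrg1 missed it without replicate 2 (5.97), 3 (4.08) or 6 (5.81), and in sums of at least 5 cells (5.84, adjusted p = 0.206, the highest over its alternatives, of which the lowest was 2.30e-07). Without replicate 2, Bnip3 (4.38) and Pdk1 (3.28) passed as higher in CTC and Egln3 (-10.20) as lower.

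In DP the same 3 genes were higher than in WBC and 0 were lower, where 17.6% of 12595 genes were higher. The differences were 5.74 ± 1.72 for Car9 (adjusted p = 0.0201), 6.60 ± 1.58 for Ndrg1 (adjusted p = 0.0053) and 6.50 ± 1.36 for Adm (adjusted p = 0.00215), each in 6 of 6 samples. Bnip3 (2.69 ± 1.22, adjusted p = 0.122), Pdk1 (1.93 ± 0.96, adjusted p = 0.158) and Slc2a1 (0.91 ± 0.81, adjusted p = 0.472) lay higher in 6 of 6 samples without passing. The median of the 9 was 2.02 and that of all genes 1.17. Adm kept its call in 18 of 18 alternatives (2.97 to 7.48), Ndrg1 in 17 and Car9 in 15. Car9 missed it without replicate 2 (4.89), 5 (5.48, adjusted p = 0.0759, the highest over its alternatives) or 6 (5.48), and Ndrg1 in sums of at least 5 cells (5.21, adjusted p = 0.215). Without replicate 2, Bnip3 (4.09) and Pdk1 (3.12) passed. Between the whole classes DP and CTC 0 of the 9 passed, against 5.85% of 12595 genes. At an unadjusted p under 0.05 there were 0 of the 9, beside 1457 of the 12595 genes. DESeq2 called 1 of the 9 (Egln3, 5.96), beside 1469 of the 12595 genes.

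Within the DP class, Car9 and Adm went with the tumor-high transcriptome. Car9 in tumor-high DP cells of blood had 72.3 CPM at the lowest, 482 at the median and 653 at the highest of 7 samples, and in tumor-low DP cells 1.41, 6.58 and 33.5 in 6. In lung the tumor-high sums had 1.42, 45.6 and 486 CPM in 6 samples and the tumor-low sums 0.225, 1.84 and 28.6 in 7. The 2 states did not overlap in blood and overlapped in lung. Of the 9 genes 2 were higher in tumor-high cells and 0 lower, where 10.7% of 10995 genes were higher: Car9 by 4.64 ± 0.89 (adjusted p = 0.000479, higher in 11 of 12 pairs of a sample and tissue) and Adm by 6.47 ± 1.91 (adjusted p = 0.0168, 9 of 12 pairs). Car9 kept its call in 20 of 20 alternatives, with values of 3.81 to 5.08. Adm was lost in 6 of 20 (adjusted p from 7.22e-11 to 0.388), among them without replicate 1 (5.43) or replicate 7 (5.63), without the block on samples (3.29), in blood cells only (5.82) and in replicates 1 to 6 alone (4.62). In tumor-low DP cells Adm had 79.6 CPM in the 2 blood cells of replicate 3 and 12.6 in replicate 6, each nearly all in a single cell, and at most 1.2 elsewhere.

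None of the 7 remaining genes passed between the DP states. Bnip3 was higher in 10 of 12 pairs without passing (2.24 ± 0.95, adjusted p = 0.106) and passed without replicate 3 (2.91), with DESeq2 (2.14) and with cells weighted equally (2.39). Egln3 passed as lower with DESeq2 (-3.23) and with cells weighted equally (-1.57), and Ankrd37 with DESeq2 (-2.57). Slc2a1 (0.01 ± 0.73), Pdk1 (0.99 ± 1.17), Ndrg1 (-0.32 ± 1.70), Vegfa (-0.58 ± 1.43), Ankrd37 (-2.46 ± 1.65) and Egln3 (-3.83 ± 2.28) had adjusted p-values of 0.28 to 0.995. Of changes added to simulated data, 89% of those of 6 on the log2 scale and 0% of those of 2 were recovered in this comparison. These data gave all genes the same spread. In the measured counts Pgk1 (2.11 ± 0.40) and Tpi1 (1.54 ± 0.42) passed, and recovery at each gene's own spread was not tested. The states differ by construction in their leukocyte genes, and tumor-low DP cells had a median macrophage sum of 30469 CPM in blood and 36999 in lung, with 7 of 7 macrophage genes detected and 0 at a median of 0. Whether the difference between the states itself differed between lung and blood was tested as an interaction. Here 0 of the 9 passed, as did 0% of 10995 genes, but large changes added to simulated data were not recovered in this design either, so the count of 0 says nothing about a difference between tissues. At an unadjusted p under 0.05 there was 1 of the 9 (Pdk1, -4.96 ± 2.20), beside 563 of the 10995 genes. DESeq2 called 0 of the 9 and 660 of the 10995 genes. The median of the 9 was -2.06, beside -0.86 over all genes.

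Tumor-high DP cells were set against tumor-high CTC to ask whether the sorted class matters once the transcriptome is alike. Car9 had 128, 271, 59.6, 409 and 514 CPM in blood CTC of replicates 1, 2, 3, 5 and 6, and 532, 381, 137, 653 and 586 in tumor-high DP cells of the same samples. The DP value was higher in each of these 5 pairs and in the lung pair of replicate 5 (46.6 in CTC, 77.9 in DP), while the lung pair of replicate 3 went the other way (690.2 in CTC, 13.4 in 2 DP cells). The fitted difference had the opposite sign to 6 of these 7 pairs. Of the 9 genes 0 passed, against 0.0252% of 11926 genes. At an unadjusted p under 0.05 there were 0 of the 9, beside 567 of the 11926 genes. DESeq2 called 0 of the 9 and 746 of the 11926 genes. Differences of DP minus CTC were -0.55 ± 1.02 for Car9, -0.02 ± 0.75 for Bnip3, 0.18 ± 0.90 for Slc2a1, -0.42 ± 1.02 for Pdk1, 0.07 ± 1.38 for Ndrg1, 0.34 ± 1.24 for Adm, 0.54 ± 1.43 for Vegfa, -1.07 ± 1.87 for Ankrd37 and 4.69 ± 2.96 for Egln3. Standard errors were 0.75 or more, and even among large changes added to simulated data many were missed in this design, so the classes are not shown to be alike.

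For lung against blood in tumor-high cells 0 of the 9 passed, against 0.126% of 11926 genes. Beside 1444 of the 11926 genes, 1 of the 9 had an unadjusted p under 0.05. That gene was Ankrd37 (-5.74 ± 2.59, unadjusted p = 0.0373, adjusted p = 0.386), which had no counts in lung tumor-high sums of replicates 1, 2 and 3 and 17.1 and 12.8 CPM in replicates 7 and 8. DESeq2 called it (-5.43), as it did 1967 of the 11926 genes. Pdk1 (-2.32 ± 1.22), Car9 (-1.74 ± 1.45) and Bnip3 (-1.06 ± 0.85) were lower in lung without passing, beside a median of all genes of -0.92. With cells weighted equally, Pdk1 (-3.16) and Bnip3 (-2.47) passed, beside 2154 of the 11926 genes. Slc2a1 (0.45 ± 0.87) and Adm (0.02 ± 1.33) lay at or above 0. Only 5 samples had tumor-high sums in both tissues, and replicates 1 to 3 gave 2 to 6 lung cells each. Fibroblast genes differed as well, with up to 87390 CPM in a single lung cell and a mean over cells of 2178, against 10.1 in blood, at a median of 0 in both tissues, and their part in the result was not tested.

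In tumor-low cells Ndrg1 lay higher in DP than in WBC of the same sample and tissue, without passing the test. Ndrg1 in tumor-low DP sums of blood had 0.586, 15.5, 1036, 2.97, 1.42 and 41.8 CPM in replicates 1, 2, 3, 6, 7 and 9, and in blood WBC 0 to 1.78 in 6 samples, so that the groups overlapped. They overlapped in lung too, with 0.105 CPM in the lowest DP sum and 0.109 in the highest WBC sum. It was higher in DP in 7 of 7 pairs (10.65 ± 2.78), at an unadjusted p of 0.000951 and an adjusted p of 0.317. It passed without the filter on low counts (10.67), without the block on samples (9.76) and with DESeq2 (10.65). In this design even large changes added to simulated data were almost never recovered. Of the 8 genes tested 0 passed, as did 0% of 9666 genes. At an unadjusted p under 0.05 there were 2 of the 8 (Ndrg1 and Ankrd37, the latter at 6.12 ± 2.36), beside 846 of the 9666 genes. DESeq2 called 2 of the 8 and 1838 of the 9666 genes. Single cells carried 42.9% to 99.8% of the Ndrg1 counts in these blood DP sums. Adm was too low to be tested. Between lung and blood 0 of 8 passed in tumor-low cells, against 0.145% of 9666 genes. At an unadjusted p under 0.05 there were 2 (Vegfa, 6.90 ± 2.66, and Ankrd37, -6.46 ± 2.69), beside 873 of the 9666 genes. DESeq2 called 3 of the 8 and 2014 of the 9666 genes.

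The other genes of the hypoxia pathway were described from 4 lists of 59 genes, which, like the 9, were chosen with earlier results of these data known. Against the culture, 3 of 56 tested were higher in blood tumor-high cells and 0 lower, all of them in the list of 19 glucose genes: Hk1, a hexokinase (2.94 ± 0.44, adjusted p = 0.00351), Slc16a3, a lactate exporter (2.48 ± 0.58, adjusted p = 0.042), and Ldha, which makes lactate (1.30 ± 0.29, adjusted p = 0.0314). The share of all genes higher than the culture is given above, and whether the pathway lists exceed it was not tested. Hk1 averaged 270.2 ± 77.4 CPM in the 7 blood sums (184 to 405) against 37.0 in the culture. Ldha averaged 6579 ± 875 (5220 to 7359) against 2818, with no overlap for either gene. None of 4 genes of the sensing machinery passed: Hif1a, the oxygen-regulated alpha subunit, had 342 ± 104 CPM against 262 (0.46 ± 0.36), Vhl 70.6 ± 25 against 74.2 (0.00 ± 0.45), Epas1, a second alpha subunit, 8.93 ± 3.53 against 19.4 (-1.04 ± 0.73) and Egln1, the main prolyl hydroxylase, 33.4 ± 15.9 against 11.4 (1.62 ± 0.87). Hif1a protein, on which the pathway turns, was not measured.

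Against WBC, 17 of 55 pathway genes were higher in CTC and 2 lower, and 16 were higher in DP and 1 lower (medians of 1.12 and 1.23 on the log2 scale, beside 0.74 and 1.17 over all genes). Of all genes tested, 16% and 17.6% were higher. Glucose genes made up 10 of the 17 and 7 of the 16. The largest differences in CTC were those of Ak4, a mitochondrial adenylate kinase (7.70 ± 1.48), Plod2, a collagen-modifying hydroxylase (7.46 ± 0.84), Vhl (6.83 ± 1.96), Loxl2, a collagen cross-linking oxidase (6.08 ± 1.48), Rora, a nuclear receptor (6.08 ± 2.12), and Aldoc, an aldolase (5.77 ± 1.27). In DP they were Ak4 (8.12 ± 1.51), Plod2 (7.45 ± 0.83), Rora (7.28 ± 2.13), Loxl2 (6.78 ± 1.48), Ccng2, a cyclin (6.67 ± 2.29), and Vhl (6.55 ± 1.99). Cxcr4, a leukocyte chemokine receptor, was lower in CTC (-13.34 ± 2.17) and DP (-3.79 ± 1.30). Between tumor-high and tumor-low DP cells 9 of 51 were higher and 2 lower, 7 of the 9 among glucose genes, where 10.7% of all genes were higher. They were led by Ak4 (6.09 ± 1.75), Slc2a3, a second glucose transporter (5.36 ± 1.85), Gapdh (2.47 ± 0.71), Pfkl, a phosphofructokinase subunit (2.42 ± 0.58), Pgk1 (2.11 ± 0.40) and Tpi1 (1.54 ± 0.42), the last 4 of glycolysis. The 2 lower genes were Cxcr4 (-7.01 ± 1.48) and Angptl4, a lipase inhibitor (-6.97 ± 2.03).

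At the level of single cells the genes differed in how many cells carried them. A cell was counted where the gene had 10 CPM or more, and shares have exact 95% binomial intervals over cells, which share samples and are not replicates. In blood tumor-high cells the share was 94.3% (90.4 to 96.9) for Slc2a1, 85.1% (79.8 to 89.4) for Bnip3, 76.3% (70.3 to 81.7) for Pdk1 and 71.9% (65.6 to 77.7) for Car9. It was 53.5% (46.8 to 60.1) for Ndrg1, 39.0% (32.7 to 45.7) for Adm, 34.6% (28.5 to 41.2) for Ankrd37 and 25% (19.5 to 31.1) for Vegfa. Culture cells showed another order, with 100% for Bnip3 (84.6 to 100), 95.5% for Ndrg1 (77.2 to 99.9) and 90.9% for Slc2a1 (70.8 to 98.9), while Car9 reached 22.7% (7.82 to 45.4) and Adm 0 of 22 cells (up to 15.4). In naive WBC, which lack the melanocyte programme and had a median of 1.05 M counts per cell, Car9 and Adm were at 0 of 21 cells (up to 16.1) and Slc2a1 at 14.3% (3.05 to 36.3). Thinning to 1 M counts, with cells below that depth left out, kept all 27 shares compared inside their intervals. These were shares in blood and lung tumor-high cells and in the culture. Naive WBC, of which 9 of 21 cells had under 1 M counts, were not among them.

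**Figure D3:**
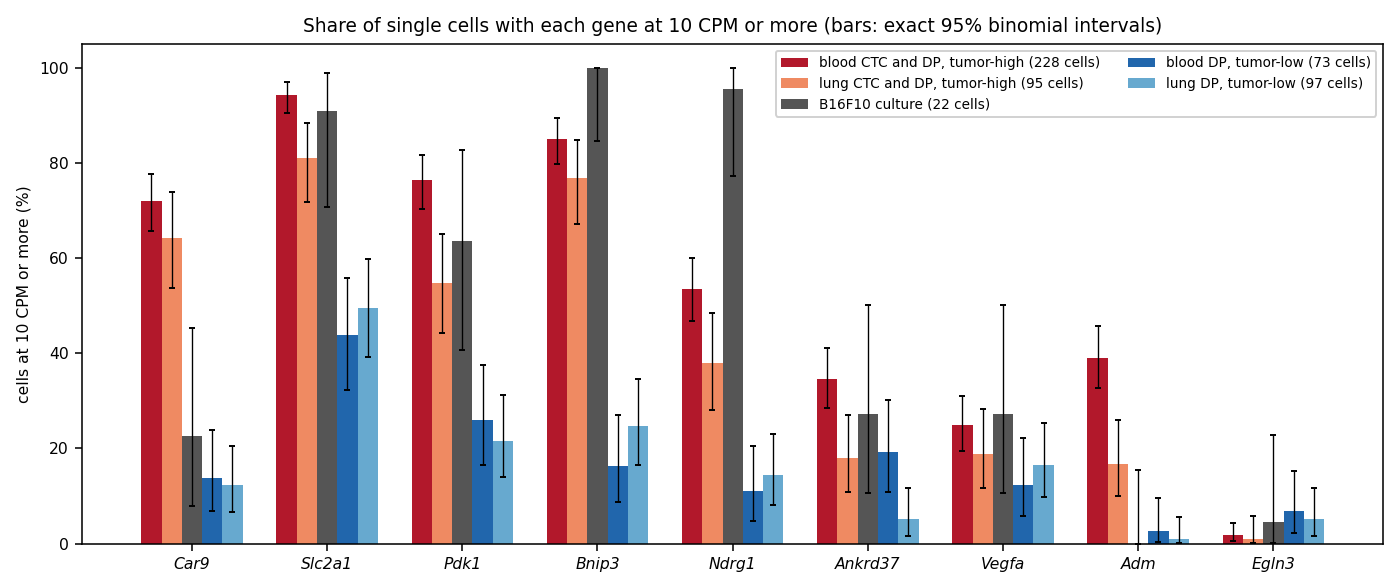
Percent of single cells with each gene at 10 CPM or more (vertical axis), with exact 95% binomial intervals, in tumor-high CTC and DP cells of blood and lung, the B16F10 culture and tumor-low DP cells. Car9 is at 71.9% in blood and 64.2% in lung tumor-high cells and at 22.7% in the culture, while Ndrg1 is at 95.5% in the culture and 53.5% in blood.

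In lung tumor-high cells the shares were 81.1% (71.7 to 88.4) for Slc2a1, 64.2% (53.7 to 73.8) for Car9 and 16.8% (9.94 to 25.9) for Adm. The intervals of lung and blood overlapped for Car9, the difference of shares was not tested, and the median lung tumor-high DP cell had fewer detected genes (7755) than its blood counterpart (8786). The spread within a kind was wide. Car9 in blood tumor-high cells had a lower quartile of 2.81 CPM, a median of 113, an upper quartile of 725 and a highest value of 4694, whereas the median culture cell had 0.0407 and the highest 38.7. Culture cells thus lacked the high end of the range that the blood cells held. Car9, Bnip3, Slc2a1 and Pdk1 together, a set picked after their values were seen, reached 10 CPM in 139 of 227 blood tumor-high cells with at least 1 M counts (61.2%, 54.6 to 67.6), in 37 of 91 lung cells (40.7%, 30.5 to 51.5) and in 2 of 22 culture cells (9.09%, 1.12 to 29.2). In CDP it was 1 of 18 cells, in PltLike 1 of 24 and in Duplike 0 of 24.

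Within a sample, tumor-high cells that were high for one of these genes tended to be high for the others. Spearman's rho was computed between cells for the 36 pairs of genes in each of 8 groups of a sample and tissue with at least 15 cells (284 cells of 7 samples) and is given as a description, since cells of a group share a library preparation and differ in depth. The median rho over pairs was 0.29, from 0.18 in blood of replicate 3 to 0.46 in blood of replicate 6, and 35 of 36 pairs had a median above 0. The strongest pairs were Bnip3 with Slc2a1 (0.70, from 0.47 to 0.81 over groups), Car9 with Bnip3 (0.69, 0.54 to 0.84), Bnip3 with Pdk1 (0.65, 0.33 to 0.78), and Car9 with Slc2a1 (0.55, 0.25 to 0.75), each above 0 in 8 of 8 groups. Pairs with Egln3 lay between -0.01 and 0.10, at counts near 0. In the 22 culture cells the median over pairs was 0.13, with 24 of 36 above 0. Car9 with Bnip3 was at -0.13 and Ndrg1 with Slc2a1 at -0.54 there, while Bnip3 with Pdk1 kept 0.61. The control medians were 0.03 in CDP, -0.02 in Duplike and 0.22 in PltLike. These groups hold 18 to 24 cells each, and the difference from the mice was not tested.

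**Figure D4:**
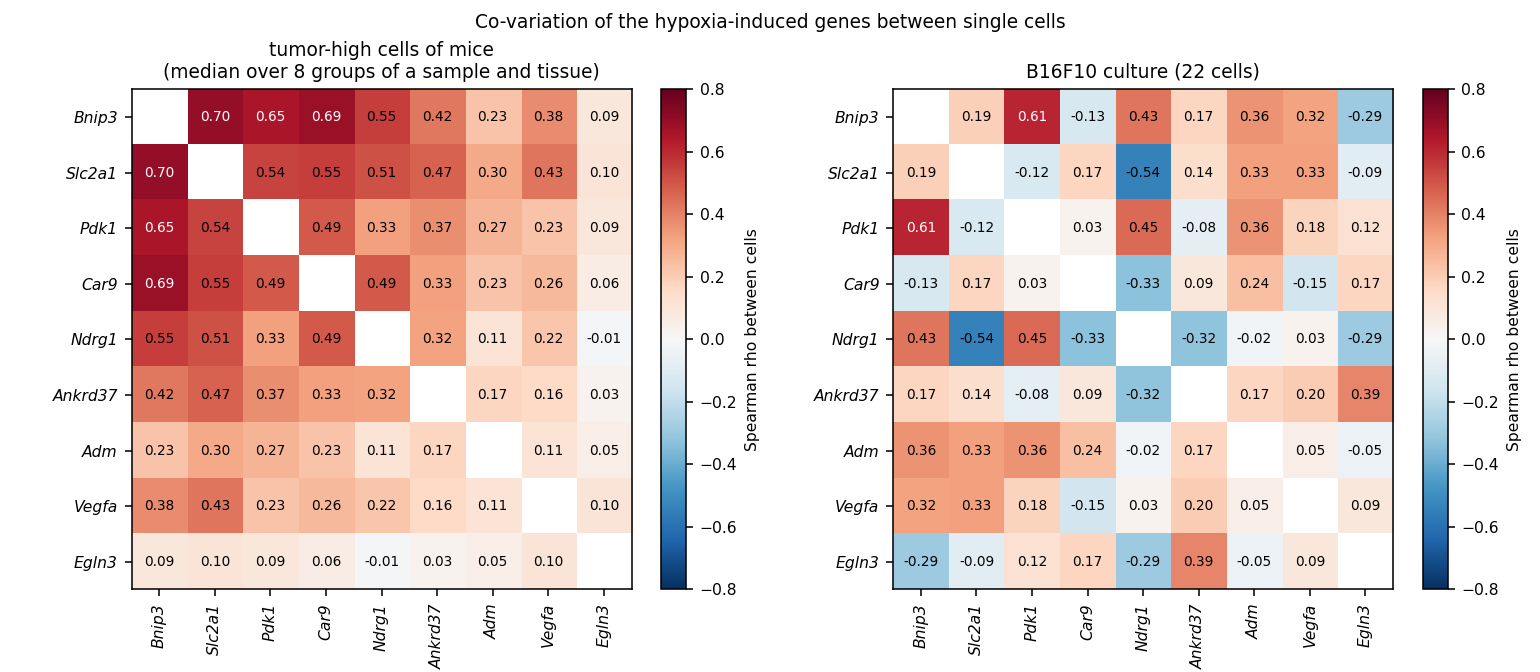
Spearman's rho between single cells for each pair of the 9 genes, as the median over 8 groups of a sample and tissue in tumor-high cells of mice (left) and in 22 cells of the B16F10 culture (right), on a scale from -0.8 (blue) to 0.8 (red). Bnip3, Slc2a1, Pdk1, Car9 and Ndrg1 form a block of 0.33 to 0.70 on the left, and on the right the same block holds values from -0.54 to 0.61.

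Each gene was also set against the mean log2(CPM + 1) of the other 8. Bnip3 followed it most closely (median rho 0.76, 0.58 to 0.88 over groups), then Slc2a1 (0.70), Pdk1 (0.65), Car9 (0.58) and Ndrg1 (0.54). Ankrd37 (0.38), Adm (0.32) and Vegfa (0.30) followed it less, and Egln3 hardly (0.06, above 0 in 5 of 8 groups). Among 8661 other genes with a mean of at least 10 CPM, the rho with the mean of all 9 had a median of -0.02, a 5th percentile of -0.25 and a 95th of 0.19. Depth did not follow the genes closely, with a median rho over the 9 of 0.04 with a cell's counts and -0.14 with its number of detected genes. The median over pairs was 0.27 to 0.32 in all alternatives run, which included partial correlation given depth and leaving out each sample.

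The 10 other genes that varied most like the 9 were Higd1a, a protein of the inner mitochondrial membrane (0.77), Ero1a, an oxidase of protein folding (0.74), Bsg, a partner of lactate transporters (0.71), Pgk1, a glycolytic kinase (0.71), Fam162a (0.70), Bnip3l, a relative of Bnip3 (0.69), the phosphofructokinases Pfkp (0.67) and Pfkl (0.67), Prelid2 (0.66) and Pkm, pyruvate kinase (0.66). Of these 10, 7 were in the pathway lists and Bsg, Prelid2 and Pkm were not. Of 18 glucose genes with enough expression 16 lay above the 95th percentile of other genes, as did 5 of 6 matrix genes, 12 of 17 other targets and 3 of 7 sensors. Of 12 melanocyte genes 1 did (Tyrp1, 0.21), and of 8 pan-leukocyte genes 0. Among the sensors Egln1 had 0.51 (8 of 8 groups above 0), Hif1a 0.27, Vhl 0.24 and Epas1 -0.03.

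**Figure D5:**
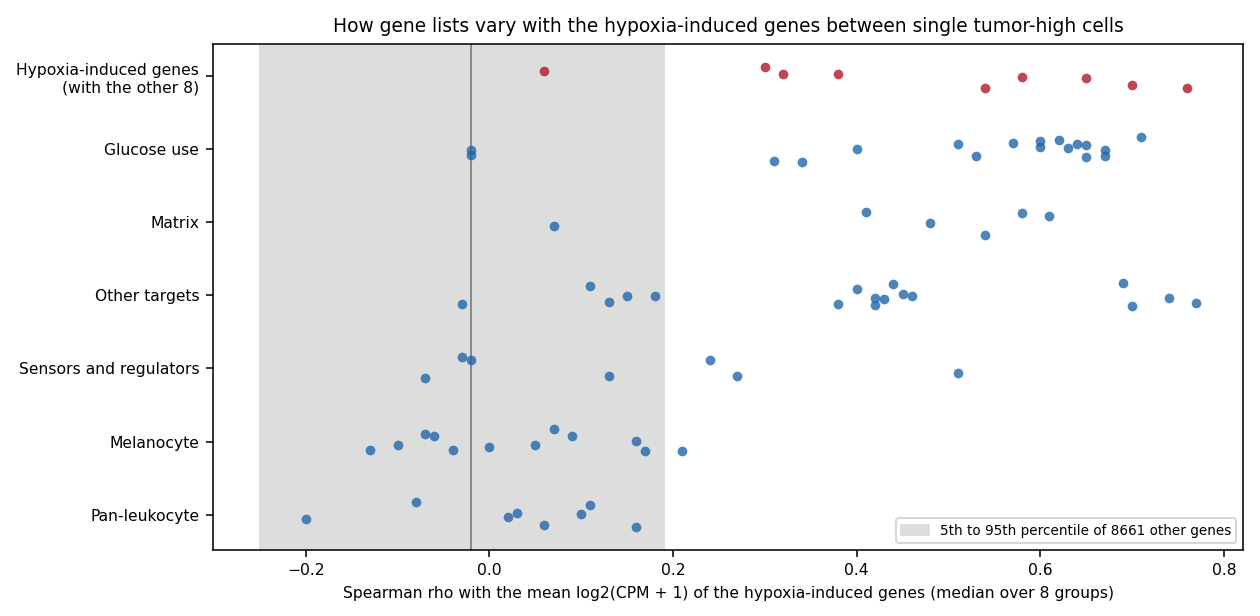
Spearman's rho between single tumor-high cells and the mean log2(CPM + 1) of the hypoxia-induced genes (horizontal axis, median over 8 groups), 1 point per gene, by list. The grey band spans the 5th to 95th percentile of 8661 other genes (-0.25 to 0.19); 16 of 18 glucose genes and 8 of the 9 hypoxia-induced genes (each set against the other 8) lie to its right.

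The mean log2(CPM + 1) of the 9 genes differed between samples as well as between cells. Its median in blood tumor-high cells was 1.75 in replicate 3 and 2.84 in replicate 7, and 3.84 to 4.98 in replicates 1, 2, 5, 6 and 9. In lung it was 3.55 and 3.45 in replicates 7 and 8, the samples with most cells there, whose titles begin with P. It was 0.94 to 2.93 in lung of replicates 1, 2, 3 and 5, whose titles begin with C. The culture had 3.06, CDP 3.23, PltLike 2.32 and Duplike 2.18. Single blood cells ranged from 0.71 to 9.16 and culture cells from 1.65 to 4.70, so that cells both below and above the culture range occurred in blood.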

How the data were processed

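RNA of 648 single cells was measured. Per the labels' protocols, libraries followed Smart-seq2, and per the submitters' processing notes, reads were handled with Trim Galore, HISAT2, SAMtools and featureCounts on mm10 (BWA and Picard are listed too). The tool versions were not given in the sources used here. Per gene and cell, the authors deposited raw counts, whole numbers with no normalization. Matched DNA data were not analysed here. Gene coordinates and exon lengths (all exons of a gene merged) are from GENCODE vM21, and promoters from RefSeq.

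For each sample and tissue, the counts of at least 2 cells of a class or state were added up, and CPM values are shares of these sums. Tests used edgeR 4.0.16 (quasi-likelihood, TMM, filterByExpr) under R 4.3.3 and limma 3.58.1. The sample was a block and tissue or class a term, except against the lone culture. P-values were adjusted by Benjamini-Hochberg over all genes tested, with a threshold of 0.05. The pairing comes from classes sorted from the same samples: deviations from class means correlated with a median of 0.04 over 22 pairs of the same sample and tissue (-0.03 to 0.21) and -0.01 over 246 pairs of different samples. Other steps ran in Python 3.11.15 (SciPy 1.17.1, pandas 2.3.3, NumPy 2.4.6). Only the edgeR fits were run on simulated counts, in which all genes shared the same dispersion (spread between samples). This covered CTC and WBC, tumor-high DP and CTC, tumor-low DP and WBC, the DP states, their interaction with tissue, and blood and culture. The remaining comparisons, the co-variation and the shares of cells were not simulated. Recovery at each gene's own dispersion was not tested.

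The 9 genes, the lists, the tests and the naming rule (all 9 genes, Hif1a, Epas1, Egln1 and Vhl, up to 6 called pathway genes in each direction, and the 10 genes of highest rho) were chosen with earlier results of these data known. A called pathway gene that this rule names is not reported here. Of the lists, Ero1l was matched to Ero1a and Trbc2 to no gene. Alternatives were DESeq2 1.42.0, other scalings, filters, weights, blocks and subsets of cells, and each sample left out.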

Additional observations from a re-analysis of the deposited data

Results flagged for a closer look

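In 54 sets of 4 to 10 samples (a gene in a tissue, class and state), 8 held a sample far from the rest by Dixon's criterion, which chance alone meets in about 1 set in 20, and 5 of the 8 concern levels under 2 CPM. In blood CTC, Egln3 was highest in replicate 2 (0.999 CPM, others 0 to 0.0327) and Adm in replicate 6 (176 CPM, others 7.98 to 17.9), with 98.8% and 60.0% of the counts in a single cell. In blood WBC, Vegfa was highest in replicate 5 (0.105 CPM, others 0 to 0.0225), Adm in replicate 1 (1.25 CPM, others 0 to 0.325), and Slc2a1 was lowest in replicate 6 (14.6 CPM, others 101 to 189). In lung tumor-high DP cells, Egln3 was highest in replicate 5 (10.7 CPM, others 0 to 0.0151), with 99.9% of it in a single cell, and Slc2a1 lowest in replicate 3 (0.413 CPM in 2 cells, others 129.8 to 463). In lung tumor-low DP cells, Adm was highest in replicate 3 (1.2 CPM, others 0.0151 to 0.212), all of it in a single cell.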

How the results depend on the processing

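Of 186 alternatives run for the 10 called differences, 186 kept the direction and 165 the call. Among them are the alternatives that repeated the fit of blood against the culture unchanged and could not lose its calls. The number of the 9 genes called moved as follows, and the cause was not tested. With DESeq2 it was 5 for CTC and WBC (3 in the main analysis), 1 for DP and CTC (0), 1 for tumor-high cells of lung and blood (0), 2 for tumor-low DP and WBC (0), 3 for tumor-low cells of lung and blood (0) and 5 for the DP states (2). With cells weighted equally it was 5 for CTC and WBC, 6 for DP and WBC (3), 2 for tumor-high cells of lung and blood, 4 for the DP states and 1 for blood and culture (2). In blood cells only it was 6 for CTC and WBC (of all genes, 3077 of 12375), 6 for DP and WBC (of all genes, 3073 of 12375) and 1 for the DP states (of all genes, 2664 of 11932). Without the replicate block it was 1 for tumor-low DP and WBC (of all genes, 4 of 9666) and 1 for the DP states (of all genes, 1922 of 10995), and no other count moved by over 1.5 times. Without the filter on low counts it was 1 for tumor-low DP and WBC (of all genes, 49 of 18988). For the DP states it was 1 both in replicates 1 to 6 alone (of all genes, 838 of 10824) and with cells split at 1000 CPM of melanocyte genes (of all genes, 2419 of 11215). Leaving out each sample in turn gave 1 to 3 for the DP states and 1 to 2 for blood and culture. Calls over all genes tested moved too. DESeq2 called 5829 of 12595 for CTC and WBC, 1469 of 12595 for DP and CTC and 1967 of 11926 for tumor-high lung and blood. It called 1838 of 9666 for tumor-low DP and WBC, 2014 of 9666 for tumor-low lung and blood and 4608 of 10995 for DP states. Equal weights called 6354 of 12595 for CTC and WBC and 5563 of 12595 for DP and WBC. They called 2154 of 11926 for tumor-high lung and blood and 3353 of 10995 for the DP states. Of 1664 values of single genes under alternatives, 0 were reversed, 21 lost a call, 40 gained one and 166 changed sign without a call on either side. Depth limits WBC most, with sums of 31.1 to 120.2 M counts (M, 1000000) against 163 to 1728 M in DP.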
